A study of Mus musculus with 2 samples.

Results

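The 8 miRNAs described here, mmu-miR-6236, mmu-miR-6239, mmu-miR-6244, mmu-miR-6378, mmu-miR-5099, mmu-miR-3968, mmu-miR-8110 and mmu-miR-8112 (written without the species prefix mmu, for mouse, from here on), carry high registry numbers and names with no 5p or 3p ending. They were chosen by their spot intensity, out of the 1900 mouse miRNAs of a microarray, as entries of this kind that were bright on the C57BL/6 array. All 8 gave a signal above the detection threshold in the C57BL/6 mouse EVs, and 2 of them, miR-6236 and miR-6244, did so in the BALB/c mouse EVs as well. The spots of the 8 miRNAs ran from 225 to 676 intensity units (median 296) on the C57BL/6 array and from 96.1 to 128 (median 104) on the BALB/c array. All 8 are also on the list of the study's first screening. That list took miRNAs detected only in the C57BL/6 mouse EVs or more than 20-fold higher there. Brightness on the C57BL/6 array and this strain contrast were thus both known for the 8 beforehand. These levels, the BALB/c counts and all strain ratios below are therefore descriptions, and no test is attached to them.

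EVs are extracellular vesicles, small membrane-bound particles that cells release into body fluids together with RNA. EVs were isolated from the plasma of C57BL/6 and BALB/c mice, male and 8 weeks old, whose left femoral vessels had been ligated at 2 points 24 h before the blood was drawn. Hindlimb ischemia is followed by blood flow recovery in one strain more than in the other, and the arrays were run to compare the miRNAs of their EVs. Each strain was represented by 1 array, hybridized with Cy5-labelled RNA pooled from 5 mice, and no array of mice without ligation was analysed here. A comparison between the arrays therefore contains the strain, the pool and the array at once, and these cannot be told apart. Because there was 1 array per strain, the values have no SD, and their precision is limited by this number. A larger number of EVs and more RNA per EV cannot be told apart either. The methods describe an exosome RNA kit, whereas the labels name a different kit and speak of cells as the source of the RNA.

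A miRNA is a short RNA that is cut from a hairpin-shaped precursor and guides a silencing complex to messenger RNAs, mainly by pairing of its seed near the 5′ end. Either strand of the hairpin can become the mature miRNA, and the endings 5p and 3p tell the arms apart. A registry entry without such an ending was annotated with a single mature product, and numbers are given in the order of registration, so that high numbers are late entries that mostly came from deep sequencing.

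The mature sequences are shown because they are what the array probes are designed to bind, and because the seed shows whether the 8 miRNAs belong together as a family. RefSeq (GRCm38.p6) held the mature sequence of 6 of the 8. Each is written 5′ to 3′ with the seed, bases 2 to 8, in capitals:
miR-6236: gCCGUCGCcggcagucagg
miR-6239: uAGCGUUGgaucacucggug
miR-6244: gGGGGCGUggaauuaucgggu
miR-3968: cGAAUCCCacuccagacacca
miR-8110: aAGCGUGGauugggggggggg
miR-8112: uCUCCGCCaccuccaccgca

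The other two are miR-5099 and miR-6378. The 6 seeds were all different, so the miRNAs printed above form no seed family. Of the 1618 miRNAs of the array with a RefSeq sequence, a single one shared a seed with any of them, namely miR-6351, which has the seed of miR-6239. The spot of miR-6351 was at 113 in the C57BL/6 mouse EVs and 101 in the BALB/c mouse EVs, well under that of miR-6239 on the first array. The closest other mature sequence on the array was 6 to 8 edits away from each of the 6, an edit being 1 base changed, inserted or lost. It was miR-681 for miR-6236 and miR-185-3p for miR-6244, both 7 edits away, and miR-3963 for miR-3968 and miR-7045-3p for miR-8112, both 6 edits away.

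The 6 sequences were rich in G and C. Their share of G and C ran from 55.0% in miR-6239 to 78.9% in miR-6236, with a median of 66.0%, against a median of 52.2% over the 1618 miRNAs. The lowest share among the 6, 55.0%, was taken as a cutoff, so all 6 reach it by construction. It was reached by 631 of the 1618 (39.0%). Detection and base composition went together on the array as a whole. Of the 550 miRNAs with a sequence that were detected in the C57BL/6 mouse EVs, 368 (66.9%) also reached 55.0%. The median of these 550 was 60.0%. The 6 were 19 to 21 bases long.

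miR-8110 stood out by its composition. G made up 66.7% of its bases, and it ended in a run of 10 Gs, while miR-6244 carried a run of 5 at its 5′ end. Of the 39 miRNAs of the array with a run of at least 5 Gs, 28 (71.8%) were detected in the C57BL/6 mouse EVs and 16 (41.0%) in the BALB/c mouse EVs. The shares were 33.1% and 9.06% among the 1579 miRNAs with shorter runs. Whether such runs played a part in the signals of miR-8110 and miR-6244 was not tested.

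The 8 genes lie at separate places on 7 chromosomes. The RefSeq annotation of GRCm38.p6 gives the mature miR-6236 at chr9:110281353-110281371 on the plus strand, where the lncRNA gene Gm39429 runs on the minus strand. The mature miR-6244 lies on the same chromosome at chr9:52115653-52115673, plus strand, inside Zc3h12c, a zinc finger protein gene read from the minus strand. Mature miR-3968 lies at chr11:115447969-115447989, minus strand, inside the tripartite motif gene Trim80, which is read from the plus strand. For these 3 miRNAs the surrounding gene is thus transcribed in the opposite direction.

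Mature miR-8112 lies at chr6:71271745-71271764 on the plus strand inside Krcc1, a coiled-coil protein gene of the same strand. Mature miR-6239 lies at chr14:117953768-117953787 on the minus strand inside Gpc6, which codes for a cell-surface proteoglycan and whose strand was not compared. Mature miR-8110 lies at chr8:89024791-89024811 on the plus strand in no annotated gene, with the transcription factor gene Sall1 as the nearest protein-coding one. The precursor hairpins of miR-6378 (chr3:34922545-34922651, minus strand) and miR-5099 (chr12:36816205-36816278, plus strand) also lie in no annotated gene, and the protein-coding gene nearest to that of miR-6378 is the transcription factor gene Sox2. In all, 5 of the 8 lie in an annotated gene and 4 of these genes are protein-coding. Exons and introns were not resolved here. The mature miRNA lay nearer the 3′ end of its precursor in 5 of the 6 and nearer the 5′ end in miR-6244.

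The precursors were folded in silico where their sequence was on hand, which was the case for 6 of the 8. A more negative energy per base means a more stable predicted hairpin, and the median over 1005 mouse precursors was -0.406 kcal/mol per base. The precursor of miR-8112 folded into the most stable structure of the 6, with -71.5 kcal/mol or -0.546 per base. That of miR-8110 was near the median, at -0.399 per base. The precursors of miR-3968, miR-6378 and miR-6244 were less stable, at -0.289, -0.302 and -0.306 per base, so that 90.9%, 88.1% and 87.0% of the 1005 were more stable per base. That of miR-5099 lay between, at -0.359.

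On the arrays, each miRNA has 1 spot, and its fluorescence is given in arbitrary intensity units as the scanner read it. The background was taken from empty BLANK spots, whose mean was 98.3 with an SD of 3.62 on the C57BL/6 array and 102 with an SD of 4.02 on the BALB/c array. A miRNA was called detected more than 2 SD above this mean, which is above 106 and above 111 in turn. All 8 were detected in the C57BL/6 mouse EVs, where 638 of the 1900 miRNAs (33.6%) were. In the BALB/c mouse EVs 2 of the 8 were detected, where 187 of the 1900 (9.84%) were. The remaining 6 were detected only in the C57BL/6 mouse EVs, as were 460 of the 1900 (24.2%). The choice of bright miRNAs fixed the first of these counts. The 8 were also chosen with earlier results of both arrays known, so the BALB/c counts are not free of the choice. Nothing is read from any of these counts.

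The spot of miR-6236 was the brightest of the 8. It was at 676 in the C57BL/6 mouse EVs and 128 in the BALB/c mouse EVs, which is 160 and 6.44 SD above the background of each array. The area around it was itself bright on the C57BL/6 array, at 612, and after its subtraction miR-6236 had the lowest value of the 8, 63.9, against 96.6 to 216 for the others. By spot intensity it ranked 36 on the C57BL/6 array and 85 on the BALB/c array. It was followed by miR-6244, with 401 and 120, or 83.6 and 4.47 SD above the background. miR-6244 ranked 51 and 114. These were the 2 miRNAs with a measured level on both arrays, and their BALB/c spots differed by 7.90, less than the 11.4 that spot noise of 2 SD in each spot allows.

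The other 6 were bright in the C57BL/6 mouse EVs and lay in the range of empty spots in the BALB/c mouse EVs. miR-3968 was at 336 and 105, or 65.7 and 0.540 SD above the background. miR-8110 was at 308 and 109, and its BALB/c spot, 1.51 SD above the background, was the nearest of the 6 to detection. miR-5099 was at 284 and 96.1, the lowest BALB/c spot of the 8, which lay under the BLANK mean (-1.60 SD).

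miR-8112, miR-6239 and miR-6378 were the dimmest on the C57BL/6 array and close to each other. miR-8112 was at 234 in the C57BL/6 and 104 in the BALB/c mouse EVs. miR-6239 was at 230 and 98.8. miR-6378 was at 225 and 102, still 35.1 SD above the C57BL/6 background. The steps between these 3, 3.46 and 4.94 units, did not exceed the 10.2 units of spot noise, while every other step in the C57BL/6 order of the 8 was larger, from 24.5 to 275 units. This is an order of spots and not of amounts, since probes of different sequence can bind unequally.

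**Figure D1:**
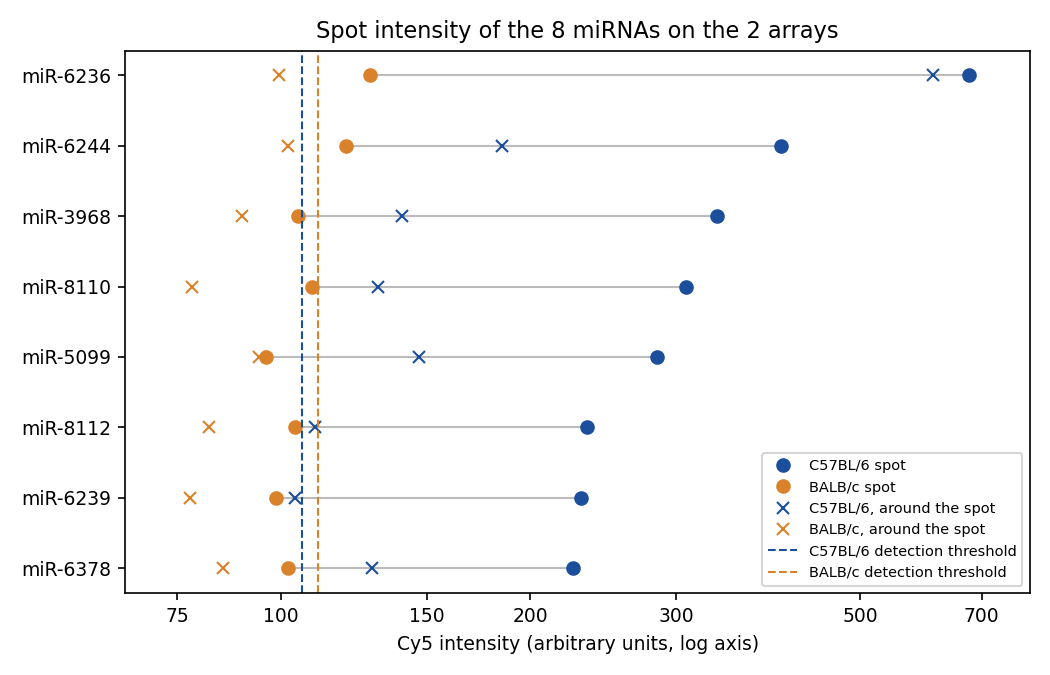
Spot intensity (arbitrary units, log axis) of the 8 miRNAs in the C57BL/6 and BALB/c mouse EVs, 1 spot per array, with crosses for the intensity around each spot and dashed lines at the detection thresholds of 106 and 111. All 8 C57BL/6 spots lie between 225 and 676, while 6 of the BALB/c spots lie between 96.1 and 109, under their threshold.

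All 8 were far from the detection limit of the C57BL/6 array. The median spot of the 638 miRNAs detected there was 118, and that of the 460 detected only in the C57BL/6 mouse EVs was 113. There were 95 miRNAs at least as bright as miR-6378, and the next below it among the late entries without an arm ending was miR-8099, with 223 and 127.

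**Figure D2:**
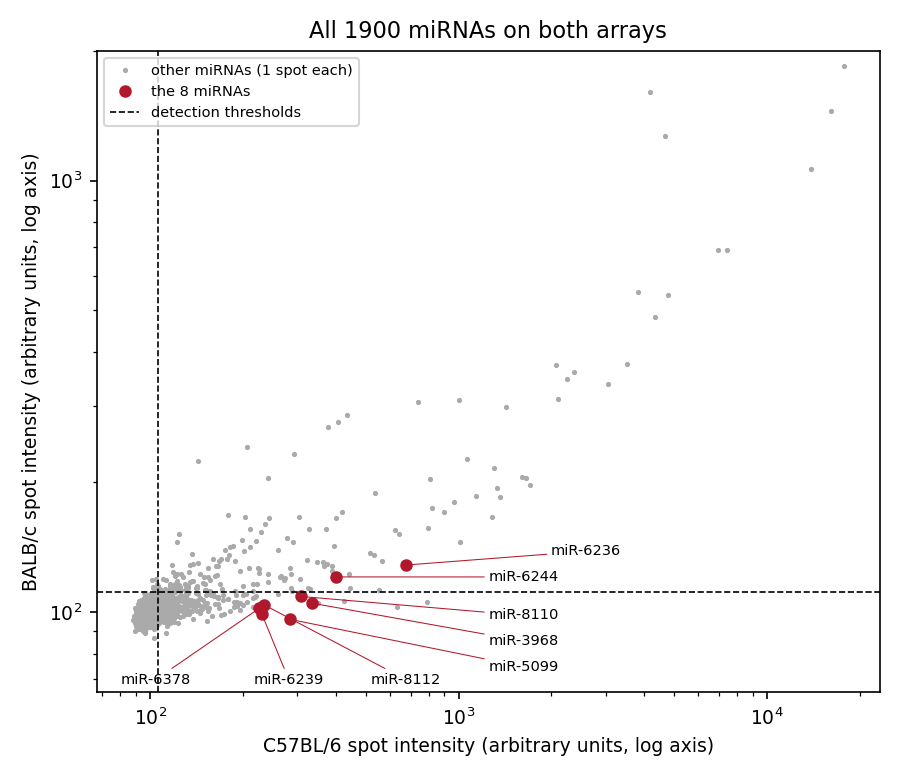
Spot intensity of all 1900 miRNAs in the BALB/c mouse EVs against that in the C57BL/6 mouse EVs (arbitrary units, log axes), 1 point per miRNA, with dashed lines at the thresholds of 111 and 106. The 8 miRNAs, in red, lie to the right of the main cloud and near or under the BALB/c threshold.

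The strain ratio of these miRNAs could be formed for miR-6236 and miR-6244, while the other 6 allow a lower bound. The BLANK mean was subtracted, and both arrays were brought to the same 75th percentile over the 178 miRNAs detected on both, which divides each C57BL/6 to BALB/c ratio by 5.32. For an undetected BALB/c spot, the bound was taken against the lowest signal detected on that array, 8.08 above background, or against the spot's own signal if higher. All 8 ratios or bounds were above 1, as were 7.32% over the 1900 miRNAs, and as the C57BL/6 intensity that chose the 8 is one side of this ratio, nothing is read from the count. None exceeded 20, and 0% of the 1900 did.

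The C57BL/6 signal of miR-6236 was 4.20 times the BALB/c signal, with 3.16 to 6.16 when both signals are moved by 2 SD of the BLANK spots. That of miR-6244 was 3.17 times as high, with 2.14 to 5.86. The ranges of the 2 ratios overlap. The subtraction of the surroundings of each spot was an alternative added after the data were seen. Scaled on the miRNAs detected on both arrays in this way, the ratio of miR-6236 was 0.585, so that its direction turned. Without scaling it was 3.47. With the BLANK mean subtracted, the median ratio of the 178 shared miRNAs was 0.738, and the spot-noise ranges of both lay above it. The C57BL/6 intensity that chose both is one side of the ratio, so nothing is read from this.

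Among the miRNAs with a bound, miR-3968 was at least 5.53-fold, miR-8110 at least 4.88-fold and miR-5099 at least 4.31-fold brighter in the C57BL/6 mouse EVs. miR-8112 was at least 3.15-fold, miR-6239 at least 3.07-fold and miR-6378 at least 2.96-fold higher. The bounds depend on the detection threshold. At 3 SD in place of 2 SD they were 2.92 for miR-3968, 2.58 for miR-8110, 2.28 for miR-5099, 1.66 for miR-8112, 1.62 for miR-6239 and 1.56 for miR-6378. The 460 miRNAs detected only in the C57BL/6 mouse EVs had a median bound of 0.343, which is under 1 because most of them were barely above the threshold. With spot noise taken against the bound, miR-8110 moved the most, to 2.70-fold, since its BALB/c spot was closest to detection. miR-3968 then stood at 4.24-fold and miR-5099 at 4.14-fold. The lowest was miR-8112 with 2.58-fold.

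The size of these ratios followed the scaling. On the scale of the authors' value table, in which the detected miRNAs of each array have a median of 25, miR-6236 was 26.8-fold and miR-6244 20.2-fold higher, and the bounds of the other 6 ran from 18.9-fold for miR-6378 to 35.3-fold for miR-3968. All 8 were above 1 on that scale, against 33.2% of the 1900 miRNAs, and 6 of the 8 exceeded 20, against 1.11%. Without any scaling the range was 15.7 to 29.4, all 8 were above 1, against 30.9% of the 1900, and 4 of the 8 exceeded 20, against 0.789%. Scaled on the spike controls, which are bright control spots of both arrays, the range was 8.72 to 16.3. All 8 were then above 1, against 19.7% of the 1900, and none exceeded 20, against 0.211%. The C57BL/6 intensity that chose the 8 is one side of all these ratios. The list of the study's first screening, which holds all 8, used the same fold of 20. Nothing is therefore read from the counts on any scale.

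With another background correction, normexp, followed by quantile normalization, the ratios of the 8 lay between 0.910 and 1.84. This setting gives a ratio for undetected BALB/c spots too, and its offset of 50 draws the ratios of weak signals toward 1. Its values are thus not of the same measure as the lower bounds above. miR-6236 was the one that turned direction, to 0.910 (log2 ratio -0.14), while miR-6244 had the highest value with 1.84. Over all 1900 miRNAs the ratios ran from 0.213 to 2.95 in this setting, with a median of 0.999, and 49.5% of them were above 1. The direction for miR-6236 thus depended on background correction and scaling together. With the surroundings subtracted it turned after scaling on the shared miRNAs, while the unscaled ratio was 3.47. The directions of the other 7 did not change in any setting run.

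**Figure D3:**
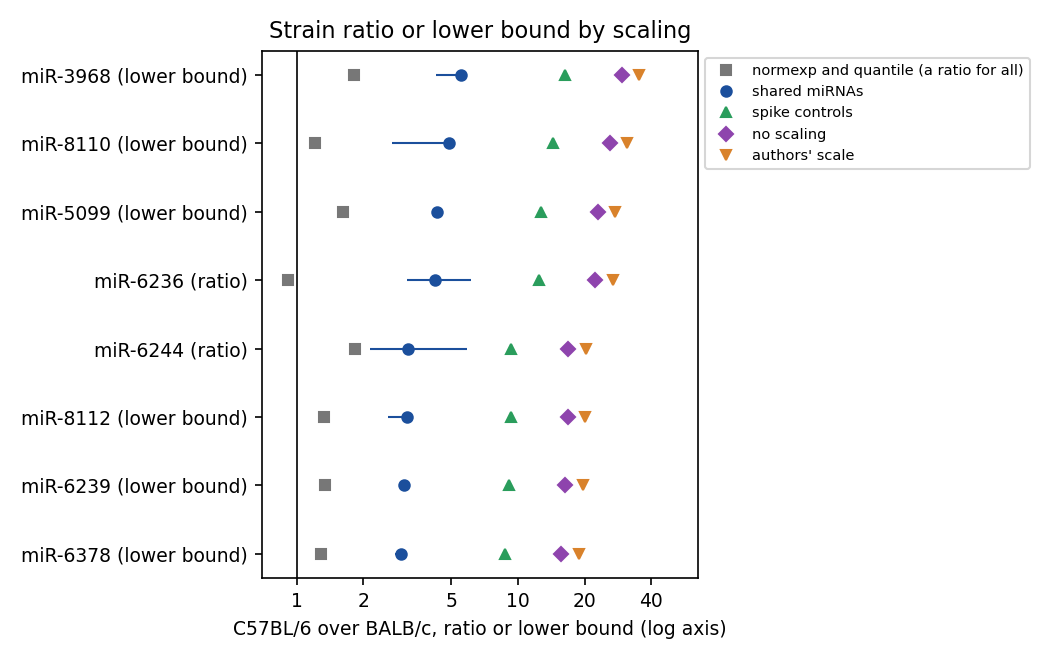
Ratio of C57BL/6 to BALB/c signal (log axis) of the 8 miRNAs under the settings shown in the key, with a vertical line at 1 and horizontal lines for spot noise of 2 SD. The values lie between 2.96 and 5.53 when scaled on the shared miRNAs, between 18.9 and 35.3 on the scale of the authors' table, and reach under 1 for miR-6236 with normexp and quantile normalization.

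The scanner also recorded the intensity around each spot, which is not part of the values above. On the C57BL/6 array miR-6236 was 1.10 times as bright as its surroundings, which stood at 612. It was the only one of the 8 under 1.2 times, as were 195 of the 638 detected miRNAs (30.6%). On the BALB/c array its spot of 128 had surroundings of 99.6. The spot exceeded its surroundings by 63.9 on the C57BL/6 array and by 28.7 on the BALB/c array, and empty BLANK spots exceeded theirs by 20.0 and 16.1. The ratio of what remained above the BLANK spots was 3.47 without scaling, against 22.3 with the BLANK mean subtracted. Scaled on the 74 miRNAs detected on both arrays in this way, it was the 0.585 given above, against 4.20.

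The other 7 stood clear of their surroundings in the C57BL/6 mouse EVs. miR-3968 was 2.41 times, miR-8110 2.36 times and miR-6239 2.21 times as bright. miR-6244 followed with 2.17, miR-8112 with 2.13, miR-5099 with 1.93 and miR-6378 with 1.75 times. More than 2 times was reached by 5 of the 8, against 25 of the 638 detected miRNAs (3.92%), whose median was 1.27. The spot intensity that chose the 8 is one side of this ratio, so nothing is read from the contrast. When the surroundings were subtracted from each spot instead of the BLANK mean, all 8 were still detected in the C57BL/6 mouse EVs, as were 254 of the 1900 (13.4%). In the BALB/c mouse EVs 2 of the 8 passed, as did 78 of the 1900 (4.11%), but these were miR-6236 and miR-8110, and miR-6244 did not pass. On this basis miR-8110 had a ratio of 1.87, and the lower bounds of the other 6 ran from 1.04 for miR-6378 to 2.66 for miR-6244.

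Of the 8, 4 have a very bright spot at their edge or corner. On the C57BL/6 array, miR-6239 touches miR-6240, which was at 4676, and miR-8112 touches miR-8113, which was at 2103. miR-5099 and miR-3968 each touch a spike control, at 25016 and 24392. The other 7 spots around miR-6240 ran from 89.0 to 118, those around miR-8113 from 90.8 to 107, and those around the spike control beside miR-5099 from 90.1 to 105. Those around the spike control beside miR-3968 ran from 93.0 to 400 with a median of 102. Of all miRNAs that touch a spike control, 50 of 104 (48.1%) were detected in the C57BL/6 mouse EVs, with a median spot of 105, against 32.7% of the other 1796, with a median of 102. At least as bright as miR-6378, the dimmest of the 8, were 15 of these 104 (14.4%) and 80 of the other 1796 (4.45%), and without the 8 it was 13 of 102 (12.7%) and 74 of 1790 (4.13%). The part of the spike controls in the spots of miR-5099 and miR-3968 was not tested. The other 4 of the 8 had no neighbour above 223.

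The 8 were then set beside the other late entries of their kind. The array holds 162 miRNAs with no arm ending and a number not under that of miR-3968, the lowest among the 8. Of these, 61 (37.7%) were detected in the C57BL/6 mouse EVs and 19 (11.7%) in the BALB/c mouse EVs, and all 19 were among the 61. Without the 8, the shares were 53 of 154 (34.4%) and 17 of 154 (11.0%). These shares lie near those of all 1900 miRNAs, 33.6% and 9.84%.

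By name, the late entries with a 5p ending had the largest share detected in the C57BL/6 mouse EVs, with 135 of 314 (43.0%), followed by the 37.7% of those without an ending. Late entries with a 3p ending had 114 of 313 (36.4%), which is above the 34.4% of those without an ending once the 8 are left out. In the BALB/c mouse EVs the shares of the late 5p and 3p miRNAs were 11.5% and 2.24%. Among miRNAs with lower numbers, 30.2% of those without an ending, 29.5% of the 5p and 29.3% of the 3p miRNAs were detected in the C57BL/6 mouse EVs. The median ratio of the 17 late entries without an ending that were detected on both arrays, leaving out the 8, was 1.33. It was 1.73 for the 35 late 5p miRNAs and 1.25 for the 7 late 3p miRNAs detected on both arrays. Among the earlier miRNAs it was 1.91 for the 17 without an ending, the highest of these classes. It was 0.536 for the 62 earlier 5p and 0.469 for the 38 earlier 3p miRNAs.

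**Figure D4:**
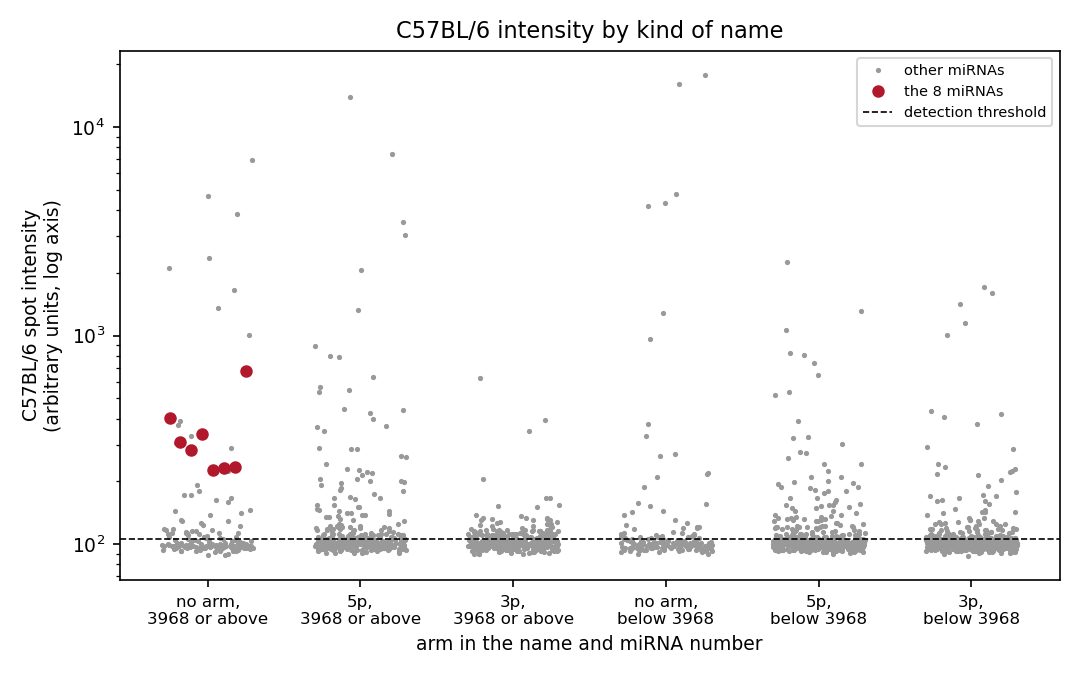
Spot intensity in the C57BL/6 mouse EVs (arbitrary units, log axis) of all 1900 miRNAs by arm ending and registry number, 1 point per miRNA spread sideways at random within its class, with a dashed line at the threshold of 106. The 8 miRNAs, in red, lie between 225 and 676 among the late entries without an arm ending, whose brightest spot reached 6946.

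The 8 are not the brightest of the 162. Another 8 were brighter than miR-6236, with C57BL/6 spots from 1001 to 6946, and all of them were also detected in the BALB/c mouse EVs, with 184 to 1272. The brightest 5 were miR-5126 with 6946 and 691, miR-6240 with 4676 and 1272, miR-8101 with 3830 and 553, miR-6366 with 2365 and 359, and miR-8113 with 2103 and 312. Their ratios were 2.19, 0.736, 1.56, 1.66 and 1.80, and over all those brighter than miR-6236 the ratios ran from 0.736 to 2.90. The ratio of miR-6244 was 3.17, with a spot-noise range of 2.14 to 5.86 that reaches under the highest of these. Another 5 lay between miR-6236 and miR-6378 in brightness, with 290 to 389, and all 5 were detected in the BALB/c mouse EVs, with 119 to 155. At the other end, the dimmest detected ones were miR-6368 with 108, miR-6385 with 107 and miR-6356 with 106. Every one of the 162 that was as bright as miR-6378 and undetected in the BALB/c mouse EVs was therefore among the 8. This cutoff is the dimmest of the 8 itself, so nothing is read from that. Of the 154 others, 36 were also detected only in the C57BL/6 mouse EVs, all dimmer than miR-6378.

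For each of the 8, the miRNA outside the set with the most similar pair of intensities was looked up by the distance between the log2 values of the 2 arrays. For miR-6378 it was miR-135a-1-3p, with 223 and 101 at a distance of 0.020. For miR-6239 and miR-8112 it was miR-7036b-5p, with 229 and 101 at distances of 0.030 and 0.054. For miR-3968 it was miR-7047-5p, with 350 and 105, and for miR-6244 miR-3090-5p, with 388 and 124. For miR-8110 and miR-5099 it was miR-5132-5p, with 289 and 112. The least matched was miR-6236, with miR-326-5p at 643 and 151 and a distance of 0.247. These likenesses rest on 2 arrays.

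The ratio of a miRNA went with its base composition over the array. Over the 151 miRNAs detected on both arrays with a sequence, the share of G and C correlated with the log2 ratio with a Pearson's r of 0.65 and a Spearman's rho of 0.69. This is a description across miRNAs, which share the same 2 arrays, labelling and scaling and are not independent replicates. They were split at 55.0% G and C, the lowest share among the members with a sequence. At 55.0% or more, 64 of 85 miRNAs had a ratio above 1 and the median was 1.80. Below 55.0% it was 3 of 66, with a median of 0.467. miR-6236 (78.9%, ratio 4.20) and miR-6244 (61.9%, ratio 3.17) lay above the median of the first set, which includes both. The bounds of miR-8110 (71.4%), miR-8112 (70.0%), miR-3968 (57.1%) and miR-6239 (55.0%) lay above it too. The part of base composition in the ratios of the 8 was not tested.

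**Figure D5:**
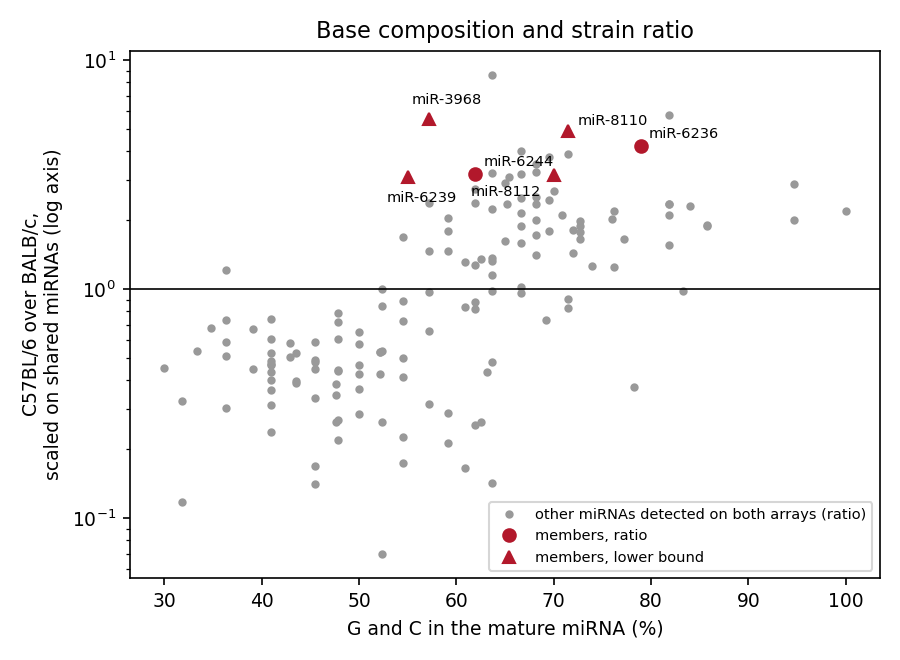
Ratio of C57BL/6 to BALB/c signal, scaled on the shared miRNAs (log axis), against the share of G and C in the mature miRNA (%), 1 point per miRNA. The 6 with a sequence lie at 55.0% to 78.9% G and C, and all have a ratio (circles) or lower bound (triangles) above 1. The C57BL/6 intensity that chose them is one side of that value.

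miRNAs known from blood cells and tissues were read on the same arrays. Of 12 such markers 10 were detected in the C57BL/6 and 8 in the BALB/c mouse EVs. All 3 erythrocyte markers were detected on both arrays, and miR-451a was at 4180 and 1603, a ratio of 0.511. The ratios of miR-144-3p and miR-486a-5p were 0.451 and 0.540. Both miRNAs taken here as platelet markers were detected on both arrays too. miR-223-3p was at 204 and 166 (ratio 0.312) and miR-126a-3p at 177 and 133 (ratio 0.492). The liver miRNA miR-122-5p was at 108 and 109, detected only in the C57BL/6 mouse EVs by its lower threshold. Of the 3 muscle markers, miR-133a-3p was at 242 and 204 (ratio 0.264) and miR-1a-3p at 124 and 151 (ratio 0.100), both detected on both arrays, while miR-206-3p was detected on neither. Of the 3 leukocyte markers, miR-155-5p was detected on neither array. miR-142a-3p was at 108 and 104, detected only in the C57BL/6 mouse EVs, with a lower bound of 0.230. Of the markers with a ratio, miR-150-5p, a lymphocyte miRNA, had the highest with 1.01, scaled on the shared miRNAs like those of miR-6236 and miR-6244. The cells from which the 8 came were not determined.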

How the data were processed

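The deposited scanner output gives a Cy5 intensity for each of 3200 spots and its surroundings, neither subtracted nor normalized. The authors' table gives background-subtracted intensity values, scaled to a median of 25 over the detected miRNAs of each array, and the sources used here do not name the software that made it. Recomputed from the spots, 0 detection calls differed from that table and the largest difference was 7.66e-05. BLANK spots (896) were trimmed by 45 at each end, which left 806. Detection, scaling and lower bounds were computed as described with the results, 1 array per strain, with no test. The miRNAs named were the 8, the nearest miRNA to each, the 5 brightest and 3 dimmest detected of the other late entries without an arm ending, those sharing a seed, and the markers. Exceptions, named after their values were seen, are miR-8099, the spots that touch the 8 and the nearest sequences. The 8 miRNAs and all lists were chosen with earlier results of these data known. The alternatives were detection at 3 SD, untrimmed BLANK spots, other scalings, the authors' table, and normexp (offset 50) with quantile normalization. The bounds with spot noise, the subtraction of surroundings and the spots beside spike controls were added after the data were seen. The ratio calculation, scaled on the shared miRNAs, was tested on simulated data. That test covered miRNAs with BALB/c signals further above the background than those of miR-6236 and miR-6244. The lower bounds, the spot-noise ranges and the alternatives were not tested in this way. Python 3.11.15, numpy 2.4.6, pandas 2.3.3, scipy 1.17.1, matplotlib 3.10.9, RNAfold 2.7.2, R 4.3.3 and limma 3.58.1 were used. Sequences and positions are from RefSeq (GRCm38.p6).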

Additional observations from a re-analysis of the deposited data

How the results depend on the processing

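The counts of the 8 miRNAs detected in the C57BL/6 mouse EVs (8), in the BALB/c mouse EVs (2) and only in the former (6) were the same at 3 SD, with untrimmed BLANK spots and in the authors' table. With the surroundings subtracted they were also 8, 2 and 6, with miR-8110 in place of miR-6244 in the BALB/c mouse EVs. The number with a ratio or bound above 20 was 0 when scaled on the shared miRNAs, 4 without scaling and 6 in the authors' table. All 8 were above 1 in every setting run but those in which the surroundings of the spot enter. There miR-6236 had 0.910 with normexp and quantile normalization and 0.585 with the surroundings subtracted and scaling on shared miRNAs. Without that scaling the latter was 3.47. The values ran from 1.56 to 3.31 at 3 SD, from 1.95 to 3.65 with untrimmed BLANK spots, from 3.48 to 6.52 on the median of the shared miRNAs, from 2.14 to 4.24 at the low end of spot noise, and from 0.585 to 2.66 with the surroundings subtracted, the last pair being alternatives added after the data were seen. Of the 162 late entries without an arm ending, 55 passed on the C57BL/6 array at 3 SD and 58 with untrimmed BLANK spots, against 61. No paired analysis was possible because there was 1 array per strain and the labels give no replicate numbers. A BALB/c signal under 8.08 above background could not be measured, which limits 6 of the 8 miRNAs to lower bounds.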
